A study of Rattus norvegicus with 6 samples.

Results

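Mitochondrial ribosomal protein genes were taken as the rows annotated protein_coding whose name is Mrpl or Mrps followed by a digit, which gave 76 genes of the 34538 in the deposited tables. The mitochondrial ribosome (mitoribosome) is built inside the mitochondrion from proteins encoded in the nucleus and imported, and from rRNA transcribed from mitochondrial DNA. Its small subunit decodes the mRNA and its large subunit joins the amino acids, and its products are the core subunits of the oxidative phosphorylation complexes that chromosome MT encodes. Many of its proteins have counterparts in bacterial ribosomes, and others are found only in mitochondria. Muscle fibres and osteoclasts, both found at or near a healing fracture, are known as cells rich in mitochondria.

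The animals were Sprague Dawley rats (female, outbred), in which both ovaries had been removed at an age of 8 weeks. Their left femur was cut across 12 weeks afterwards and held by a nail of 1.2 mm, and material was injected around the fracture. One group received MgPA-Gel, an adhesive hydrogel built on plant phosphate coordination compounds per the series title (3 libraries), and the other received the gel alone (Gel, 3 libraries). A 1 cm stretch of femur around the fracture was used for poly-T selected RNA, and the time of harvest was not given in the sources used here. Ovariectomy, osteotomy and nail were shared by both groups. The labels name no individual animals, so the p-values describe the spread between these libraries, which could be technical.

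Total gene counts were 18.2, 15.4 and 15.4 M (mega) counts in MgPA-Gel 1, 2 and 3, against 16.2, 15.8 and 13.6 M counts in Gel 1, 2 and 3. Some libraries stood apart. Counts on chromosome MT took 25.9% of MgPA-Gel 1 and 24.0% of Gel 1, and 5.29% to 8.83% of the other 4 libraries. Of 12 skeletal muscle fibre markers 9 were found in the table, and their summed level ran from 101 to 37080 CPM (counts per M counts, with TMM-adjusted library sizes) in MgPA-Gel and from 10.3 to 493 CPM in Gel, with the highest value in MgPA-Gel 1 and none of the 9 at 0 in every library. The 7 erythroid markers found of 8 summed to between 708 and 8690 CPM in MgPA-Gel and between 269 and 6013 CPM in Gel, also with MgPA-Gel 1 highest. Macrophage markers (8 of 8 found) summed to between 1007 and 1870 CPM in MgPA-Gel and between 1011 and 1225 CPM in Gel, with MgPA-Gel 2 highest and MgPA-Gel 1 lowest. Neutrophil markers (8 of 8 found) summed to 750, 2126 and 157 CPM in MgPA-Gel 1, 2 and 3, against 193, 241 and 70.1 CPM in Gel 1, 2 and 3, again with MgPA-Gel 2 highest. Osteoclast markers (7 of 7 found) ran from 2592 CPM in MgPA-Gel 2 to 18535 CPM in MgPA-Gel 3, and from 8227 to 11641 CPM in Gel. Osteoblast and bone matrix markers (8 of 8 found) summed to 41484, 66357 and 63523 CPM in MgPA-Gel 1, 2 and 3. In Gel 1, 2 and 3 they summed to 63650, 57893 and 108047 CPM, so MgPA-Gel 1 was lowest and Gel 3 highest.

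The mitoribosome was expressed nearly whole. Of the 76 genes, 73 passed the filter on low counts, 46 of them in the large subunit, 26 in the small subunit, and Mrps36. Mrpl36 and Mrpl53 had a count of 0 in every library, which allows a share of at most 2.20e-05% of counts in the shallowest one, by counting error only. Other rows, LOC100910528 described as L36-like and LOC103692169 described as L53, held 27 and 30 counts over the 6 libraries. How the authors' counting divided reads between such rows is not known. Mrps21l, a gene with a name like that of the small-subunit gene Mrps21, had 0, 1 and 2 counts in MgPA-Gel and 4, 3 and 0 in Gel. Another 3 genes, spelled mrpl9, mrpl11 and mrpl24 in the table, fell outside the rule by their lower case and are described apart. The 76 genes lie on 19 chromosomes, with 12 on chromosome 1, 12 on chromosome 10, and none on chromosome MT.

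Levels per length spanned a wide range among proteins that enter the same particle. FPKM (the authors' counts per kilobase and per M counts) averaged over the 6 libraries had a median of 20.0 across the 73 genes, with quartiles of 10.6 and 37.8. Mrpl33, a small protein of the large subunit with a bacterial counterpart, was highest at 225 FPKM, and its transcript was counted over only 236 bases. Next came Mrpl17, at the mouth of the tunnel through which the new chain leaves, at 139 FPKM. Mrpl54 and Mrpl52, both specific to mitochondria, averaged 104 and 59.4 FPKM. Mrpl23, another protein of the exit tunnel, averaged 70.2 FPKM. At the low end stood Mrpl30 at 1.26 FPKM, Mrpl1 at 1.48 FPKM and Mrpl47 at 3.20 FPKM.

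**Figure D1:**
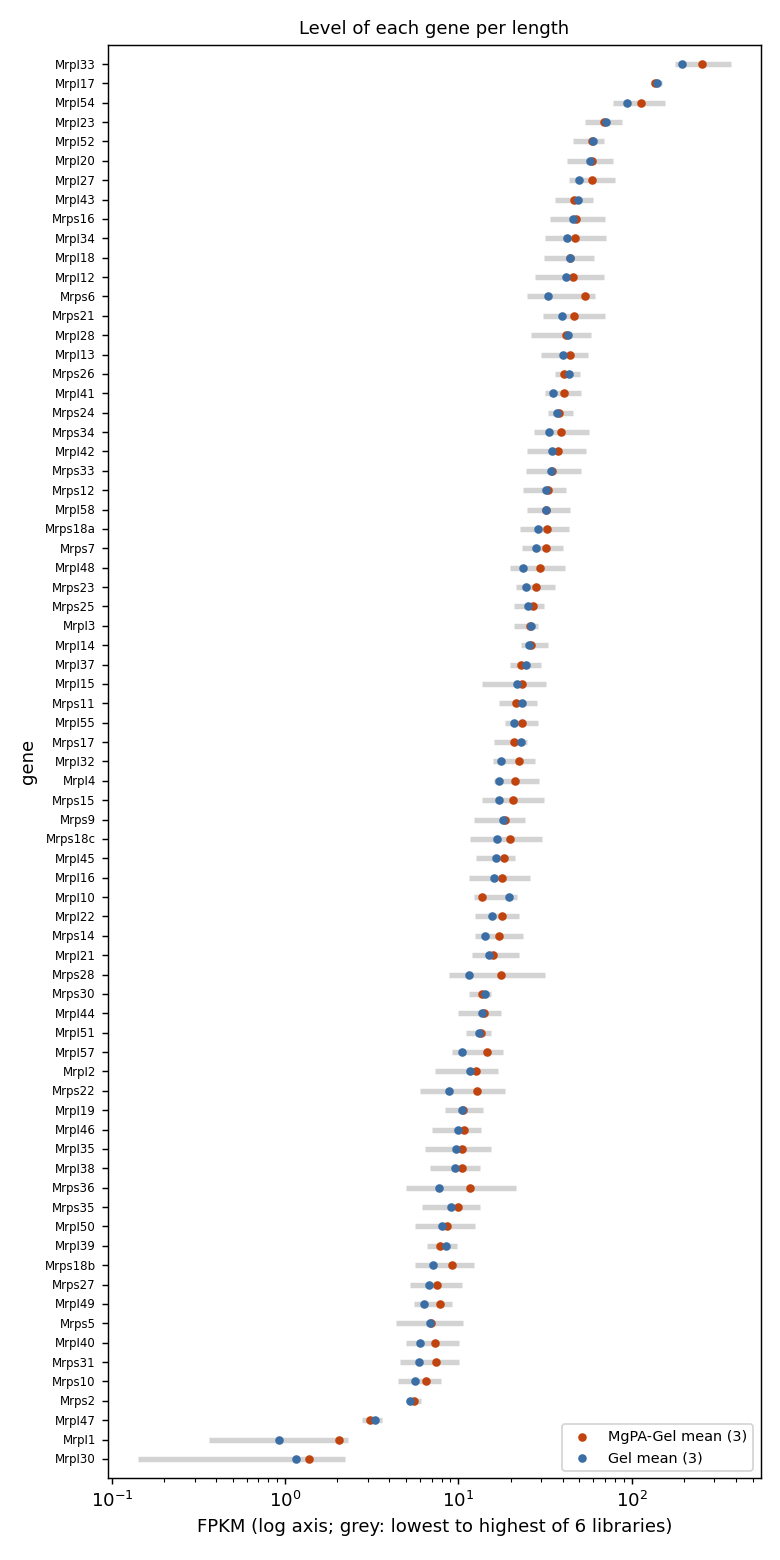
Level per length (FPKM, log axis) of each mitochondrial ribosomal protein gene that passed the filter, with the MgPA-Gel mean and the Gel mean as points (3 libraries each) and the lowest to highest of 6 libraries as a grey bar. Mrpl33 averaged 225 FPKM over the 6 libraries and Mrpl30 1.26 FPKM, whose bar is the widest on the log axis.

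The ratio of transcript levels between the subunits was steady across libraries. It sums over more genes in the large subunit than in the small, so it does not measure the amounts of the subunits. Summed FPKM of the large subunit over that of the small subunit was 2.54, 2.51 and 2.60 in MgPA-Gel 1, 2 and 3, against 2.59, 2.58 and 2.70 in Gel 1, 2 and 3. The groups overlapped, and the ratio averaged 2.55 ± 0.0452 in MgPA-Gel and 2.62 ± 0.0631 in Gel (SD, n = 3 each). By contrast, summed FPKM of all 76 genes was 2927, 1706 and 2048 in MgPA-Gel, against 2183, 2009 and 1877 in Gel, so that the 2 extremes of the 6 libraries were both in MgPA-Gel.

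Both groups received a gel, so the comparison of MgPA-Gel with Gel asks how the fracture site differed between MgPA-Gel and the gel alone. It left no mitochondrial ribosomal protein gene past the threshold. In edgeR's quasi-likelihood test, 0 of the 73 genes and 0 of all 14818 genes tested (0%) passed 0.05 after Benjamini-Hochberg adjustment, with a smallest adjusted p of 0.998. At an unadjusted p under 0.05 there were 2 of the 73, Mrps6 and Mrpl10, or 2.74%, against 2.63% of all genes tested (1.78% higher and 0.844% lower in MgPA-Gel). DESeq2 passed 10 genes of 14693 with an adjusted p (0.0681%), none of them among the 73, and limma-voom passed 0 (0%). At an unadjusted p under 0.05, DESeq2 had 2 of the 73 and 643 of all 14818 genes. Limma-voom had 3 of the 73 and 244 of all 14818 genes at that level. Groups did not overlap in 3 of the 73 (4.11%), against 6.88% of all genes tested (3.26% higher and 3.62% lower in MgPA-Gel). The members' shares were therefore near or below the background by edgeR, DESeq2 and group overlap. By limma-voom the share at an unadjusted p under 0.05 lay above it, on 3 genes.

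Fold changes were small and mostly above 0. The log2 fold change of MgPA-Gel over Gel was above 0 in 59 of the 73 genes (80.8%), against 54.8% of all genes tested, and below 0 in 14. Its median was 0.12, against 0.03 over all genes tested, and 67 of the 73 lay within 0.5 of 0. Among large-subunit genes 35 of 46 were above 0, with a median of 0.11, and among small-subunit genes 23 of 26, with a median of 0.18. Proteins specific to mitochondria had a median of 0.11 in the large subunit (20 genes) and 0.18 in the small subunit (10 genes), against 0.11 (26 genes) and 0.14 (16 genes) for proteins with bacterial counterparts. These counts rested on 1 library: without MgPA-Gel 1, 18 of the 73 genes were above 0 and the median was -0.14, against 52.0% of all genes above 0. The medians without MgPA-Gel 1 were -0.12 in the large subunit and -0.13 in the small subunit. Without MgPA-Gel 2, 67 genes were above 0 and the median was 0.34.

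**Figure D2:**
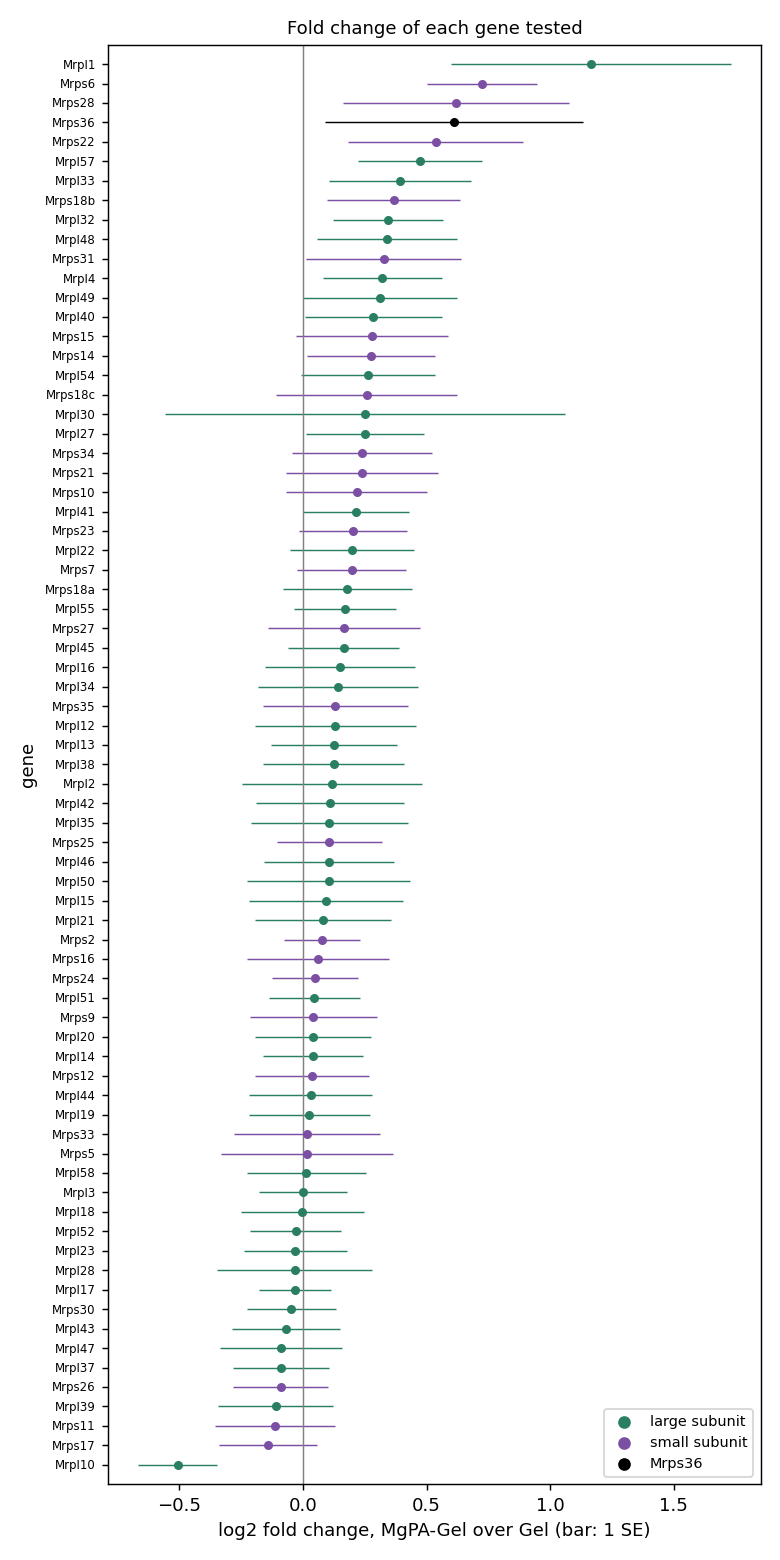
Log2 fold change of MgPA-Gel over Gel for each of the 73 mitochondrial ribosomal protein genes tested, in order of value, with a bar of 1 SE and colours for the subunit. Values run from -0.51 (Mrpl10) to 1.16 (Mrpl1), 59 lie above 0, and none passed the threshold.

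Across libraries, the 73 genes moved together. After each gene was centred on its mean over the 6 libraries, the median log2 level of the 73 was 0.48, -0.35 and 0.01 in MgPA-Gel 1, 2 and 3, against 0.06, -0.03 and -0.15 in Gel 1, 2 and 3. MgPA-Gel thus held both the highest and the lowest library, with all 3 Gel libraries between them. MgPA-Gel 1 was the highest library in 59 of the 73 genes (80.8%), against 27% of all genes tested, and MgPA-Gel 2 the lowest in 48 (65.8%), against 19.3%. The next most common lowest library was Gel 3, in 15 genes. Gel 1 was highest in 8 genes, MgPA-Gel 3 in 4, and Gel 2 and MgPA-Gel 2 in 1 each. The SD of log2 CPM over the 6 libraries had a median of 0.31 across the 73 genes (0.35 over all genes tested), and of 0.16 once each library's median was subtracted. Only Mrpl30, Mrpl1 and Mrps6 kept an SD above 0.5 after that, at 1.30, 0.88 and 0.55. The library medians came from the same 73 genes, so part of the fall to 0.16 was built in. A like value was not computed for other genes. In bulk tissue, fewer cells of a type and less RNA per cell cannot be told apart.

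**Figure D3:**
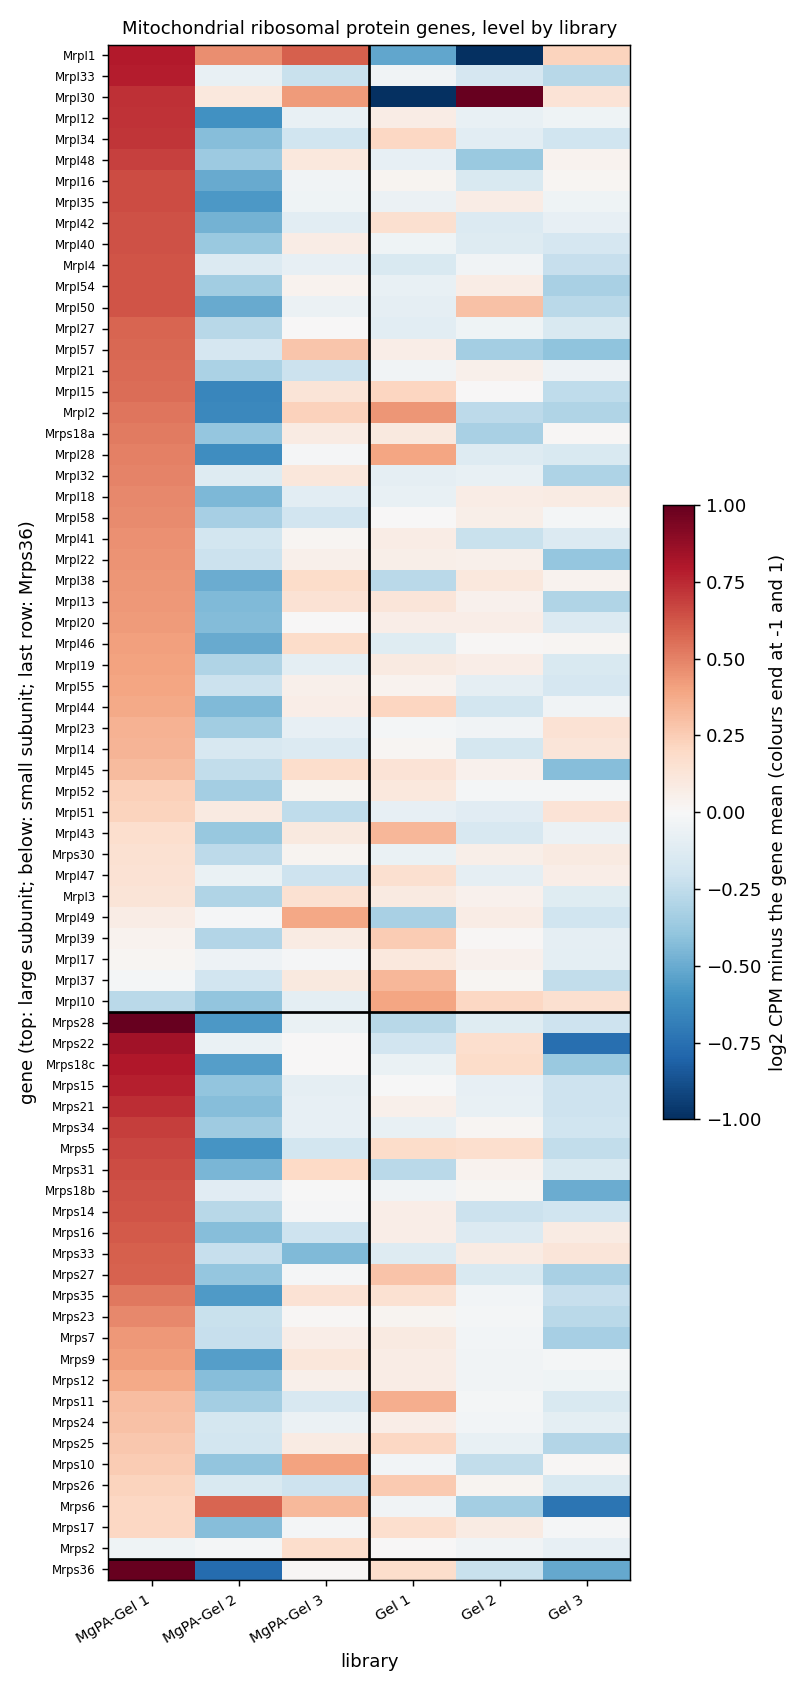
Level of each of the 73 mitochondrial ribosomal protein genes in each of the 6 libraries, as log2 CPM minus the mean of the gene, with large-subunit genes above small-subunit genes and Mrps36 last. The column of MgPA-Gel 1 is red almost throughout (highest in 59 genes) and that of MgPA-Gel 2 mostly blue (lowest in 48).

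The share of counts told the same order. Among counts off chromosome MT, the 76 genes took 0.325%, 0.175% and 0.234% in MgPA-Gel 1, 2 and 3, against 0.247%, 0.233% and 0.198% in Gel 1, 2 and 3. Group means were 0.245% ± 0.0759 in MgPA-Gel and 0.226% ± 0.0251 in Gel (SD, n = 3 each), a ratio of 1.08. Leaving out MgPA-Gel 1 gave a ratio of 0.906, and leaving out MgPA-Gel 2 gave 1.24. The 95% exact binomial intervals were narrow beside these gaps, at 0.322% to 0.328% in MgPA-Gel 1 and 0.173% to 0.177% in MgPA-Gel 2, and cover counting error only.

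Set against chromosome MT, the order of libraries was only partly shared. Counts on chromosome MT took 25.9%, 5.29% and 6.10% of all counts in MgPA-Gel 1, 2 and 3, against 24.0%, 8.64% and 8.83% in Gel 1, 2 and 3. MgPA-Gel 1 was highest and MgPA-Gel 2 lowest on both measures. Gel 1, whose share of MT counts was close to that of MgPA-Gel 1, had a share of ribosomal protein counts (0.247%) close to that of MgPA-Gel 3 (0.234%) and Gel 2 (0.233%), whose MT shares were far lower. For each count in the 76 genes there were 108, 32.0 and 27.7 counts on chromosome MT in MgPA-Gel, against 128, 40.7 and 49.0 in Gel, so the widest difference was between each group's replicate 1 and its other libraries. The mean share of MT counts was 12.4% ± 11.7 in MgPA-Gel and 13.8% ± 8.82 in Gel (SD, n = 3 each), a difference of -1.39 percentage points (exact two-sided permutation p = 0.6, where 3 against 3 cannot go below 0.1). That difference turned to 3.71 percentage points without Gel 1, to 2.19 without MgPA-Gel 2 and to 1.78 without MgPA-Gel 3. The 6 libraries form separate sets by MT share, so no correlation across them was computed.

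**Figure D4:**
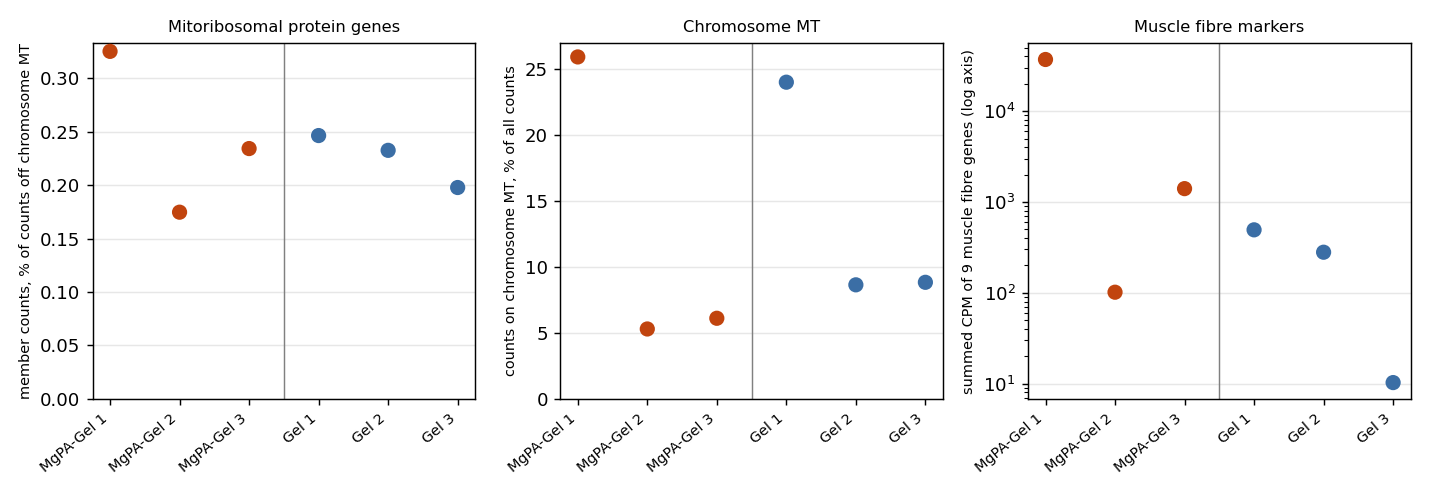
Counts of the 76 mitochondrial ribosomal protein genes as a percent of counts off chromosome MT, counts on chromosome MT as a percent of all counts, and summed CPM of 9 muscle fibre markers (log axis), each by library. MgPA-Gel 1 is highest in all 3 panels (0.325%, 25.9% and 37080 CPM), while Gel 1 is near it in the MT panel alone (24.0%).

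The RNA partners of these proteins varied far more than the proteins' own transcripts. The pair of rRNA genes on chromosome MT summed to 14918, 1366 and 593 CPM in MgPA-Gel 1, 2 and 3, against 9177, 1545 and 1998 CPM in Gel 1, 2 and 3. MgPA-Gel 1 and Gel 1 were again high and the groups overlapped. Since the libraries were poly-T selected, the share of rRNA kept in each is not known. Of the 13 protein-coding genes on chromosome MT, whose mRNAs are what the mitoribosome reads, 3 had a log2 fold change above 0 and 10 below, with a median of -0.13 and none past the threshold.

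Nuclear subunits of oxidative phosphorylation, whose partners the mitoribosome makes, followed the same order of libraries. The 84 genes took 1.65%, 0.610% and 0.990% of counts off chromosome MT in MgPA-Gel 1, 2 and 3, against 0.998%, 0.848% and 0.692% in Gel 1, 2 and 3. Group means were 1.08% ± 0.524 in MgPA-Gel and 0.846% ± 0.153 in Gel (SD, n = 3 each), and the MgPA-Gel mean without MgPA-Gel 1 was 0.800%, below that of Gel. Of 79 tested, 74 had a log2 fold change above 0, against 54.8% of all genes tested, with a median of 0.37 and none past the threshold. Ribosomal protein counts came to 19.8%, 28.6% and 23.7% of the oxidative phosphorylation counts in MgPA-Gel, against 24.7%, 27.5% and 28.6% in Gel, so the ratio was lowest in MgPA-Gel 1. Muscle fibre markers summed to 37080, 101 and 1403 CPM in the MgPA-Gel libraries 1, 2 and 3, against 493, 280 and 10.3 CPM in Gel 1, 2 and 3, with MgPA-Gel 1 first as well, and their part in these levels was not tested.

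Cytosolic ribosomal proteins, which serve the ribosome outside mitochondria, took 5.41%, 3.56% and 4.46% of counts off chromosome MT in MgPA-Gel, against 5.47%, 5.30% and 4.15% in Gel. Of 84 tested, 22 had a log2 fold change above 0, against 54.8% of all genes tested, and 62 below. Their median was -0.12, and none passed the threshold. Groups did not overlap in 7 of the 84 that were lower in MgPA-Gel and 1 that was higher, against 3.62% and 3.26% of all genes tested. Mitochondrial over cytosolic ribosomal protein counts came to 6.01%, 4.91% and 5.25% in MgPA-Gel, against 4.50%, 4.39% and 4.76% in Gel. The groups did not overlap on this ratio, by the narrow margin of MgPA-Gel 2 over Gel 3. The ratio was chosen after its values were seen, so no test is given.

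Promoters were examined because the 73 genes moved together by library. RefSeq (build GRCr8) held a window of 250 bases before to 50 after the start for 60 of the 76 genes, matched by symbol. Short motifs of 3 factors known as regulators of nuclear genes for mitochondrial proteins were searched on both strands: GCGCATG for NRF1, CCGGAAG for the ETS factors, among them GA-binding protein, and AAGATGG for YY1. The NRF1 letters overlap their own reverse complement, and the first letters of the YY1 motif can overlap the last of the ETS motif. The NRF1 letters were in 6 of 60 windows (10%), against 3.94% of all 27457 windows. The ETS letters were in 21 (35%), against 9.22%, and the YY1 letters in 16 (26.7%), against 7.30%. At least one was in 34 (56.7%), against 18.5%. Nuclear oxidative phosphorylation genes, with 71 windows matched, held them at 16.9%, 28.2% and 25.4%. The windows of the 60 genes also had more G and C, with a median of 56.0% against 52.3% of all windows. How often a motif matches depends on that. The NRF1 and ETS letters are mostly G and C, and the YY1 letters mostly A and T. The part of this in the shares was not tested, and the 27457 windows were not limited to genes tested here. These are matches of letters, not sites shown to be bound.

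The stretches of 250 bases before the start are shown for the Mrps18 paralogs, whose windows all hold an ETS match, and for Mrps6 and Mrpl10, the pair of lowest unadjusted p, which hold no whole motif before the start. Each runs 5′ to 3′ along the gene and ends at the base before the start, and capitals mark a motif. In Mrps18a (GRCr8 chr9:22367381-22367630, minus strand) the ETS motif begins 38 bases before the start, and a YY1 match begins at the start itself, outside the stretch printed. In Mrps18b (chr20:2842756-2843005, plus strand) the NRF1 letters lie on both strands in 1 palindrome that begins 20 bases before the start, an ETS match crosses the start and is not in capitals, and a YY1 match begins 28 bases after the start, outside the stretch printed. In Mrps18c (chr14:9122907-9123156, minus strand) the ETS motif begins 139 bases before the start, on the other strand. Mrps6 is shown at chr11:44778417-44778666 and Mrpl10 at chr10:82522220-82522469, both on the plus strand, and in Mrps6 a YY1 match crosses the start and is not in capitals.
Mrps18a: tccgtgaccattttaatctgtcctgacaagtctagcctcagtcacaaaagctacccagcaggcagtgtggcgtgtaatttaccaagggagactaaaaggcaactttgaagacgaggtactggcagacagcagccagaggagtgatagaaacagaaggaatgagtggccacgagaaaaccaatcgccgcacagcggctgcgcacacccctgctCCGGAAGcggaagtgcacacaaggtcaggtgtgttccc
Mrps18b: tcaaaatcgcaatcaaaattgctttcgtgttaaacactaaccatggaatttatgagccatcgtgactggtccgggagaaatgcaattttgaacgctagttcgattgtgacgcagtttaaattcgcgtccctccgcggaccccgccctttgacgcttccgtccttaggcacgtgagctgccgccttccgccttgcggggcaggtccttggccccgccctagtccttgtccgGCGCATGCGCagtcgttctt
Mrps18c: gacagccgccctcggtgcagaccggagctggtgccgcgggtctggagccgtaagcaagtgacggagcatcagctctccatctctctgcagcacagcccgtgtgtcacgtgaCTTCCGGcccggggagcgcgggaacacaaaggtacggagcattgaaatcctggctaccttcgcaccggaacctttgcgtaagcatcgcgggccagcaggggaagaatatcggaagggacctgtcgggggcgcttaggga
Mrps6: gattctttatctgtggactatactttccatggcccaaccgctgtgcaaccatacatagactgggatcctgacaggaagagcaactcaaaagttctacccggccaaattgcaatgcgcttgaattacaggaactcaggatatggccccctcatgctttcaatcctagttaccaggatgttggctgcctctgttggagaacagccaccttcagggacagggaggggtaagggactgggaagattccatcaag
Mrpl10: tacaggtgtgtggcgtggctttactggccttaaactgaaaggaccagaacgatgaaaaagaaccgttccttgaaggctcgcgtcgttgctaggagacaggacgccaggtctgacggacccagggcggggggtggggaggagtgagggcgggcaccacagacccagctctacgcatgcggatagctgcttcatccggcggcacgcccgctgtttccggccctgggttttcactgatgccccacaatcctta

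Single genes are given below as CPM by library, then the log2 fold change of MgPA-Gel over Gel ± SE, and each had an edgeR adjusted p of at least 0.998. Mrps6, a small-subunit protein with a bacterial counterpart, had the smallest p of the 73. Mrps6 (ENSRNOG00000059381, chromosome 11, 32211115 to 32263899 in the deposited table, whose build was not given in the sources used here) stood at 33.5, 43.5 and 36.3 CPM in MgPA-Gel 1, 2 and 3, against 28.3, 22.9 and 17.4 CPM in Gel 1, 2 and 3. All MgPA-Gel libraries lay above all Gel libraries, and the highest was MgPA-Gel 2, the library lowest for most of the other genes. Its log2 fold change was 0.72 ± 0.22 (edgeR, unadjusted p = 0.0143, adjusted p = 0.998), within 0.55 to 0.96 over all alternatives, with a smallest adjusted p of 0.608 among them. In RefSeq, Slc5a3, the gene of a myo-inositol transporter, lies within the span of Mrps6, and 0 rows of the count table carry that name, and the part of that overlap in the result was not tested.

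Mrpl10 anchors the stalk of the large subunit, on which Mrpl12 recruits the elongation factors. Mrpl10 (ENSRNOG00000009567, chromosome 10, 84976377 to 84984780) was at 23.6, 21.6 and 26.6 CPM in MgPA-Gel, against 37.4, 33.0 and 31.8 CPM in Gel. It was the only gene of the 73 whose MgPA-Gel libraries all lay below its Gel libraries, and MgPA-Gel 1 was not high in it. Its log2 fold change was -0.51 ± 0.16 (edgeR, unadjusted p = 0.0163, adjusted p = 0.998), within -0.59 to -0.44 over all alternatives. Mrpl12 itself was at 109, 43.3 and 62.6 CPM in MgPA-Gel, against 69.3, 62.8 and 64.1 CPM in Gel, which gave 0.13 ± 0.33, and -0.30 without MgPA-Gel 1. The stalk gene spelled mrpl11 was at 28.6, 16.8 and 20.4 CPM in MgPA-Gel, against 19.7, 23.1 and 23.2 CPM in Gel (-0.01 ± 0.23). The stalk partners therefore differed in their order of libraries, Mrpl12 following the other genes and Mrpl10 not.

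Mrpl1, which sits where spent tRNA leaves the large subunit, had the highest fold change and few counts. Mrpl1 (ENSRNOG00000002070, chromosome 14, 14951495 to 15008150) had 41, 32 and 38 counts in MgPA-Gel, against 14, 7 and 23 in Gel. That is 2.56, 2.02 and 2.22 CPM in MgPA-Gel and 0.959, 0.404 and 1.69 CPM in Gel, without overlap. Its log2 fold change was 1.16 ± 0.57 (edgeR, unadjusted p = 0.0802, adjusted p = 0.998), 1.72 without Gel 3 and 0.78 without Gel 2. A near copy, LOC100359687, had 98, 67 and 36 counts in MgPA-Gel, against 10, 131 and 31 in Gel. With both rows summed the counts were 139, 99 and 74 in MgPA-Gel, against 24, 138 and 54 in Gel, and the groups overlapped, so the direction of Mrpl1 is uncertain.

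Mrpl30, another large-subunit protein, had the widest spread. Mrpl30 had 79, 50 and 68 counts in MgPA-Gel, against 6, 112 and 44 in Gel, or 4.94, 3.15 and 3.98 CPM against 0.411, 6.47 and 3.2 CPM. Both extremes lay in Gel, in Gel 1 and Gel 2. The log2 fold change of 0.25 ± 0.81 turned to -0.27 without Gel 1 and grew to 1.15 without Gel 2. Mrpl30 overlaps Mitd1 in the table, and since the strandedness of the libraries is not stated, reads of overlapping genes cannot be told apart. In all, 12 of the 76 genes overlap another gene, 10 of them one with counts. Among these are Mrpl43 with Twnk, Mrps7 with Gga3, Mrpl21 with Ighmbp2, Mrps18a with Rsph9, Mrpl47 with Actl6a and Mrpl49 with Syvn1.

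**Figure D5:**
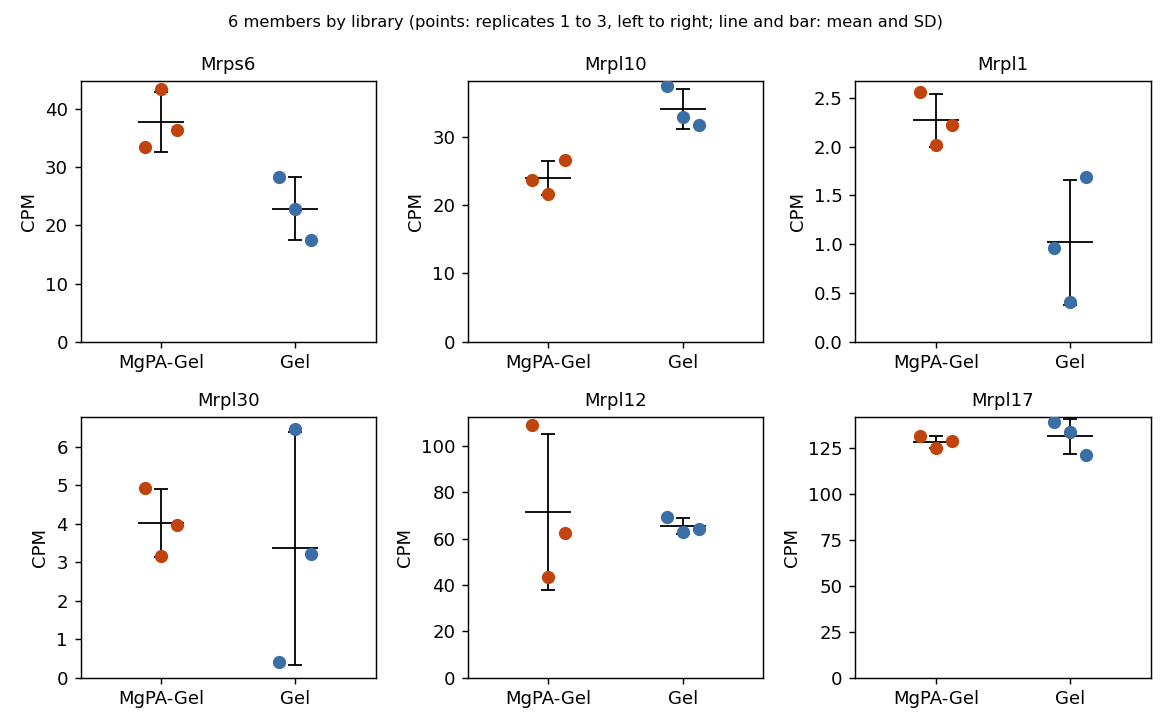
CPM by library of 6 mitochondrial ribosomal protein genes, with MgPA-Gel left of Gel and the mean and SD of each group (n = 3). Mrps6 and Mrpl1 lie higher and Mrpl10 lower in MgPA-Gel without overlap, Mrpl30 spreads within Gel (0.411 to 6.47 CPM), Mrpl12 within MgPA-Gel (43.3 to 109 CPM), and Mrpl17 stays between 121 and 139 CPM.

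Proteins around the exit tunnel included the steadiest gene of the 73. Mrpl17 was at 131, 125 and 129 CPM in MgPA-Gel, against 139, 134 and 121 CPM in Gel, an SD of 0.07 on the log2 scale over the 6 libraries and a log2 fold change of -0.03 ± 0.15. It did not follow MgPA-Gel 1, and the sign turned to 0.01 without Gel 1. Mrpl23 was at 47.6, 29.3 and 35.4 CPM in MgPA-Gel, against 37.0, 36.5 and 41.3 CPM in Gel (-0.03 ± 0.21). Mrpl22, which lines the tunnel, was at 18.7, 11.7 and 14.2 CPM in MgPA-Gel, against 14.3, 14.2 and 10.4 CPM in Gel (0.20 ± 0.25), with a log2 fold change of 0.0011 without MgPA-Gel 1 and 0.06 without Gel 3. Both had their highest level in MgPA-Gel 1. Mrpl45, which holds the ribosome to the inner membrane, was at 46.9, 31.7 and 42.6 CPM in MgPA-Gel, against 41.5, 38.8 and 27.9 CPM in Gel (0.16 ± 0.23), with a log2 fold change of 0.04 without MgPA-Gel 1 and 0.00069 without Gel 3. Mrpl47 was at 6.81, 5.87 and 5.33 CPM in MgPA-Gel, against 6.92, 5.78 and 6.45 CPM in Gel (-0.09 ± 0.25). The groups overlapped in each of these genes. In mrpl24 they did not, at 29.3, 24.6 and 27.9 CPM in MgPA-Gel, against 23.1, 24.4 and 24.6 CPM in Gel (0.18 ± 0.15, unadjusted p = 0.268), where MgPA-Gel 2 and Gel 3 were nearly equal.

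Among the genes of highest level per length, Mrpl33, Mrpl54 and Mrpl52 showed the library pattern more than a group difference. Mrpl23, given above, was likewise highest in MgPA-Gel 1 and lowest in MgPA-Gel 2. Mrpl17, at a mean of 139 FPKM, did not show the pattern and was highest in Gel 1 and lowest in Gel 3. Mrpl33 was at 88.2, 48.5 and 43.7 CPM in MgPA-Gel, against 49.9, 45.3 and 42.1 CPM in Gel (0.39 ± 0.29), with a log2 fold change of 0.0084 without MgPA-Gel 1. Mrpl54 was at 95.3, 48.2 and 63.1 CPM in MgPA-Gel, against 58.5, 64.8 and 49.0 CPM in Gel (0.26 ± 0.27), with a log2 fold change of -0.04 without MgPA-Gel 1. Mrpl52 was at 81.2, 54.3 and 70.1 CPM in MgPA-Gel, against 74.1, 68.0 and 67.9 CPM in Gel (-0.03 ± 0.19). In Mrpl33, Mrpl54 and Mrpl52, MgPA-Gel 1 was the highest of the 6 libraries and the groups overlapped. The lowest library was MgPA-Gel 2 in Mrpl54 and Mrpl52 but Gel 3 in Mrpl33.

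The next smallest p-values on the higher side belonged to Mrpl57 and Mrpl32. Mrpl57, a small protein specific to mitochondria, was at 29.8, 17.8 and 24.3 CPM in MgPA-Gel, against 21.0, 15.8 and 15.1 CPM in Gel (0.47 ± 0.25, unadjusted p = 0.101), and overlaps Ska3. The groups overlapped because MgPA-Gel 2 lay below Gel 1. Mrpl32, whose yeast counterpart is trimmed by the m-AAA protease after import, was at 21.4, 13.8 and 16.4 CPM in MgPA-Gel, against 14.2, 14.3 and 12.2 CPM in Gel (0.34 ± 0.22, unadjusted p = 0.168). Without MgPA-Gel 1 the log2 fold change was 0.29 in Mrpl57 and 0.16 in Mrpl32.

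On the lower side, after Mrpl10, the differences were within the spread of the libraries. Mrps17, a core small-subunit protein, was at 35.2, 22.7 and 30.1 CPM in MgPA-Gel, against 34.4, 32.3 and 30.3 CPM in Gel (-0.14 ± 0.20), with a log2 fold change of 0.01 without MgPA-Gel 2. Mrps26, specific to mitochondria, was at 47.1, 36.3 and 34.9 CPM in MgPA-Gel, against 48.5, 41.2 and 36.3 CPM in Gel (-0.09 ± 0.19). Mrpl39, also specific to mitochondria, was at 8.44, 6.69 and 8.72 CPM in MgPA-Gel, against 9.80, 8.26 and 7.70 CPM in Gel (-0.11 ± 0.23). MgPA-Gel 2 was the lowest library in Mrps17 and Mrpl39 but not in Mrps26.

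The Mrps18 paralogs, counterparts of 1 bacterial protein, were led by the paralog of the large subunit. Mrps18a, which despite its name belongs to the large subunit, averaged 30.8 FPKM over the 6 libraries, against 18.2 for Mrps18c and 8.18 for Mrps18b, both of the small subunit. Mrps18a was at 38.8, 20.6 and 28.5 CPM in MgPA-Gel, against 28.9, 21.5 and 27.3 CPM in Gel (log2 fold change 0.18 ± 0.26). Mrps18b was at 27.4, 16.3 and 17.6 CPM in MgPA-Gel, against 17.2, 17.8 and 12.5 CPM in Gel (0.37 ± 0.27). Mrps18c was at 24.5, 9.53 and 14.1 CPM in MgPA-Gel, against 13.4, 15.9 and 10.8 CPM in Gel (0.26 ± 0.37). All of them were highest in MgPA-Gel 1 with the groups overlapping, and without that library Mrps18a, Mrps18b and Mrps18c had values of -0.07, 0.09 and -0.18.

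Mrps36, named as a small-subunit protein but known mainly as a part of the 2-oxoglutarate dehydrogenase complex of the citric acid cycle, had the widest spread after Mrpl30 and Mrpl1. It was at 57.8, 13.4 and 23.2 CPM in MgPA-Gel, against 25.97, 19.7 and 16.1 CPM in Gel, with both extremes in MgPA-Gel. Its log2 fold change was 0.61 ± 0.52 (unadjusted p = 0.282), and -0.17 without MgPA-Gel 1. Mrps28, a small-subunit protein singled out after its values were seen, had a like pattern at 39.5, 11.1 and 15.9 CPM in MgPA-Gel, against 13.6, 15.2 and 14.4 CPM in Gel (0.62 ± 0.46). The other 5 libraries of Mrps28 lay between 11.1 and 15.9 CPM, so its fold change rested on MgPA-Gel 1. Mrps28 overlaps LOC499573 in the table, a gene with 1 count over the 6 libraries.

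Mitoribosome proteins under other names were all above 0 in log2 fold change (5 of 5, median 0.35) with none past the threshold. Aurkaip1, a small-subunit protein first named for binding a kinase, was at 222, 191 and 114 CPM in MgPA-Gel, against 121, 135 and 136 CPM in Gel (0.43 ± 0.26). Ptcd3, a pentatricopeptide protein of the small subunit, was at 38.5, 28.5 and 85.4 CPM in MgPA-Gel, against 55.7, 37.1 and 39.9 CPM in Gel (0.20 ± 0.42). Neither followed the order of the 73 genes, since Aurkaip1 was lowest and Ptcd3 highest in MgPA-Gel 3. Of the 3 genes in lower case, mrpl9 was at 51.9, 33.4 and 38.0 CPM in MgPA-Gel, against 45.1, 38.0 and 38.1 CPM in Gel (0.03 ± 0.21), with the same libraries at both ends as most of the 73.

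Genes that assemble and run the mitoribosome were also read from lists. Summed CPM of the assembly and rRNA modification genes was 412, 285 and 306 in MgPA-Gel, against 315, 311 and 299 in Gel, with the same libraries at both ends as in the 73. Of 12 translation factors tested, 8 were above and 4 below 0 in log2 fold change (median 0.06). Tufm, the mitochondrial elongation factor Tu, was at 65.8, 38.2 and 66.5 CPM in MgPA-Gel, against 65.4, 51.3 and 47.3 CPM in Gel. Oxa1l, which inserts the new chains into the inner membrane, was at 71.0, 48.8 and 77.6 CPM in MgPA-Gel, against 84.9, 66.4 and 73.5 CPM in Gel. Both were lowest in MgPA-Gel 2. Of 24 genes of assembly and rRNA modification tested, 17 were above and 7 below 0 (median 0.09), with Dhx30, a helicase, at 37.9 to 45.3 CPM and Mpv17l2, an inner-membrane protein, at 22.6 to 32.9 CPM over all libraries. The rRNA methyltransferases Mettl15 and Mrm2 lay lower in MgPA-Gel without overlap, Mettl15 at 3.69, 3.53 and 3.10 CPM in MgPA-Gel, against 5.34, 4.68 and 3.81 CPM in Gel, and Mrm2 at 4.19, 3.41 and 3.8 CPM in MgPA-Gel, against 4.32, 4.56 and 5.06 CPM in Gel. Lower values without overlap were found in 3.62% of all genes tested, and the unadjusted p-values were 0.199 and 0.335. The 16 mitochondrial aminoacyl-tRNA synthetases tested split evenly, with 8 above and 8 below 0 (median -0.01). Iars2 and Tars2, which charge isoleucine and threonine, ranged from 39.7 to 53.1 CPM and from 19.6 to 37.3 CPM over all libraries.

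Upstream, 8 of 12 genes of mitochondrial DNA and transcription were above 0 in log2 fold change (median 0.25), and 5 of 8 regulators of nuclear mitochondrial genes (median 0.15). Polg, the mitochondrial DNA polymerase, was at 36.3, 63.9 and 69.0 CPM in MgPA-Gel, against 59.9, 67.3 and 60.9 CPM in Gel, with MgPA-Gel 1 lowest. Lrpprc, which stabilizes mitochondrial mRNA, was at 50.1, 43.0 and 69.9 CPM in MgPA-Gel, against 65.6, 54.1 and 59.5 CPM in Gel. Gabpa, the subunit of GA-binding protein that reads the ETS motif, was at 48.4, 59.1 and 53.9 CPM in MgPA-Gel, against 55.9, 51.2 and 60.5 CPM in Gel. MgPA-Gel 1 was not the highest library in any of these genes. Esrra, an orphan nuclear receptor that drives mitochondrial genes, was at 70.6, 63.6 and 84.6 CPM in MgPA-Gel, against 67.8, 63.1 and 50.8 CPM in Gel (0.27 ± 0.19). Of 7 genes used as marks of mitochondrial mass, 5 were above 0 (median 0.04). Vdac1, the outer-membrane channel, was at 219, 88.7 and 107 CPM in MgPA-Gel, against 118, 111 and 102 CPM in Gel, in the order of the ribosomal proteins at both ends. Hspd1, the matrix chaperonin, stayed between 156 and 179 CPM in all libraries. None of the genes in these lists passed the threshold.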

How the data were processed

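Poly-T selected RNA was sequenced from 6 fracture samples, grouped by their titles (3 MgPA-Gel, 3 Gel). The authors deposited whole, unnormalized gene counts and FPKM for the same 34538 genes. The submitters' processing notes list edgeR 3.22.5, DESeq2 1.20.0, featureCounts 1.5.0-p3, StringTie 1.3.3b, HISAT2 2.0.5 and fastp, with no role for any of them, and no build was given in the sources used here. Library sizes implied by the deposited FPKM were 99.1% to 101% of the TMM-adjusted sizes. Left out were 11692 blank rows of the count table and 2 unnamed columns.

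Counts were tested in R 4.3.3 with edgeR 4.0.16 (filterByExpr, TMM, glmQLFit robust, glmQLFTest, two-sided, Benjamini-Hochberg over all 14818 genes tested, threshold 0.05). The code was checked on simulated counts. An SE is the size of the log2 fold change over the root of F. Log2 CPM used a prior count of 2. Alternatives were RLE size factors, no factors, no filter, protein-coding genes alone, removal of chromosome MT genes, DESeq2 1.42.0, limma 3.58.1 (voom, and log2(FPKM + 1) and log2(FPKM + 0.1)), a replicate block, each library left out, and both replicate 1 libraries left out. The count of members above 0 under each was added after seeing the data.

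Members and lists were chosen with earlier results of these data known, so list counts and medians have no test. Named members are the 4 of smallest p in each direction, the 5 highest and 3 lowest by FPKM, those without group overlap, those of widest and narrowest spread, and the stalk, exit tunnel, Mrps18 and Mrps36 genes. Mrps28, mrpl9 and the members named for an overlapping gene were added after their values were seen. Promoter motif letters were shortened after a first search with longer ones. Other lists give the 2 members of highest CPM and those without overlap.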

Additional observations from a re-analysis of the deposited data

How the results depend on the processing

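Precision was limited by 3 libraries a group. In edgeR's test and in every alternative run, 0 mitochondrial ribosomal protein genes passed. Over all genes, DESeq2 passed 10, and leaving out 1 library passed 0 to 2 (2 without MgPA-Gel 2). Leaving out 1 library gave a member median log2 fold change of -0.14 to 0.34, a large-subunit median of -0.12 to 0.33 and a small-subunit median of -0.13 to 0.35. It put 18 to 67 of 73 members above 0, the fewest without MgPA-Gel 1, and 23 were above 0 without both replicate 1 libraries. The ratio of member shares was 0.906 to 1.24, and the difference in MT share -8.13 to 3.71 percentage points (2.19 without MgPA-Gel 2, 1.78 without MgPA-Gel 3, 3.71 without Gel 1). The cause of these shifts was not tested.

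Of the 22 named members, none called in any setting, 11 changed sign when 1 library was left out. Their log2 fold changes then ranged from -0.30 to 0.39 in Mrpl12, -0.10 to 0.0094 in Mrpl17, -0.24 to 0.11 in Mrpl23, -0.27 to 1.15 in Mrpl30, -0.17 to 0.11 in Mrpl52, -0.04 to 0.46 in Mrpl54, -0.29 to 0.0090 in Mrps17, -0.075 to 0.37 in Mrps18a, -0.18 to 0.52 in Mrps18c, -0.24 to 0.024 in Mrps26 and -0.17 to 0.97 in Mrps36. Without both replicate 1 libraries, Mrpl12 was at -0.28, Mrpl30 at -0.46, Mrpl54 at -0.050, Mrps18a at -0.0063 and Mrps18c at -0.20.

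Same-numbered libraries had deviations correlated at 0.25, 0.20 and -0.03, and differently numbered ones at -0.29 to 0.06. MgPA-Gel 3 did not correlate best with Gel 3. The labels state no pairing, and so few correlations cannot settle whether the numbers pair the libraries. With the replicate number as a block, 0 genes and 0 members passed, 52 members were above 0 and their median was 0.07.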
